A study of Homo sapiens with 6 samples.

Results

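The genes followed here were ATF4 and 9 genes of the integrated stress response that it is known to control: ASNS, CHAC1, DDIT3, TRIB3, PSAT1, PHGDH, SESN2, STC2 and NUPR1. They were listed by name, and every probe set annotated to exactly 1 gene symbol that stood on the list was taken. This gave 26 probe sets of 44988 with a single symbol, and all 10 genes of 18132 measured. The cells were HMEC-1, one immortalised human line labelled as microvascular endothelial, kept in serum-free medium. In 3 samples, labelled EPC-Exos, the medium held 1e+11 particles per mL over 24 hours, and 3 PBS samples had the same volume of buffer for as long. The label is only an abbreviation. The study is known to concern exosomes of endothelial progenitor cells and to ask how they alter recipient endothelial cells. Only 1 time and 1 dose were measured. Nothing in the labels says that replicates were separate cultures, so the tests measure array-to-array spread that may be technical only.

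The integrated stress response begins when a kinase phosphorylates the translation factor eIF2, which slows most protein synthesis while translation of the ATF4 mRNA increases. ATF4 protein then turns on genes for amino acid synthesis, amino acid uptake and tRNA charging, and under lasting stress also the factor CHOP, encoded by DDIT3. Because ATF4 is controlled largely through translation, its mRNA is not a measure of its protein. In endothelial cells the pathway is known to respond to amino acid shortage, endoplasmic reticulum stress and oxidised lipids.

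Each array gave a log2 signal for 49395 probe sets, and array medians lay between 6.25 and 6.34. Arrays of one group correlated at 0.997, and arrays of different groups at 0.988 to 0.989. The endothelial label was only partly borne out: of 12 endothelial markers, 8 exceeded the highest background control signal of 4.97 in at least 1 group, while CDH5, CLDN5, EMCN and TEK did not. Markers of other cell types moved with the treatment. The summed linear signal of 8 fibroblast markers was 3152 to 3586 with PBS and 2285 to 2502 with EPC-Exos, with falls in DCN, COL1A1 and PDGFRB and a rise in THY1 among the 4 of them tested. The mean log2 signals of FAP (4.13 with PBS and 5.23 with EPC-Exos) and LUM (5.97 and 3.67), both under the signal filter of 5.45 on the mean of all 6 arrays, differed in opposite directions. The summed signal of 6 epithelial markers was 6783 to 7486 and 4653 to 4811. Of the 4 tested, KRT18 (mean log2 signal 12.53 and 11.82) and KRT8 fell, and EPCAM and KRT14 were not called. The sum of the 12 endothelial markers was 1964 to 2272 and 2746 to 2827. Of the 7 tested, ENG (9.16 and 9.96), ESAM and TIE1 rose, and VWF, KDR, ERG and ROBO4 were not called. Such sums weigh the brightest genes most. The summed signal of 7 leukocyte markers was 352 to 358 and 485 to 532. CD68, the 1 of these tested, rose from 7.73 to 8.47 in mean log2 signal. The groups overlapped in the other 6, of which PTPRC, LYZ, CD14 and ITGAM lay below the highest background control signal in both groups. The part of these shifts in the results was not tested. Control probe sets along the ACTB transcript differed between groups by 0.085 to 0.11 on the log2 scale, and those along GAPDH by 0.0018 to 0.018. In bulk RNA, a change in the number of cells of a kind and a change in RNA per cell cannot be told apart.

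The 10 genes did not move as one block. With EPC-Exos, STC2, PSAT1 and ASNS rose by 1.23-fold to 1.48-fold, NUPR1 fell 2.26-fold and SESN2 fell 1.23-fold, while ATF4 itself and its stress targets DDIT3, CHAC1 and TRIB3 did not pass the test. Calls were made in limma over 11715 genes, where the Benjamini-Hochberg adjusted p was under 0.05. All 10 genes passed the signal filter, NUPR1 through its PBS arrays; 3 were called higher, 2 lower and 5 neither way. The background was high, since 21.7% of all tested genes were called higher and 27.3% lower, so these counts lie near what any tested genes gave. Their median log2 change was 0.022, against -0.011 for all tested genes. At the threshold of the series' design text, at least 1.5-fold with an unadjusted p under 0.05, NUPR1 was the 1 member lower and 0 were higher, though 3 had an unadjusted limma p under 0.05 in that direction. Over all genes, 3.94% were higher and 5.96% lower by that threshold. The groups did not overlap in 3 members upward and 3 downward (PHGDH besides the called genes), beside 25.5% and 30.2% of all tested genes.

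**Figure D1:**
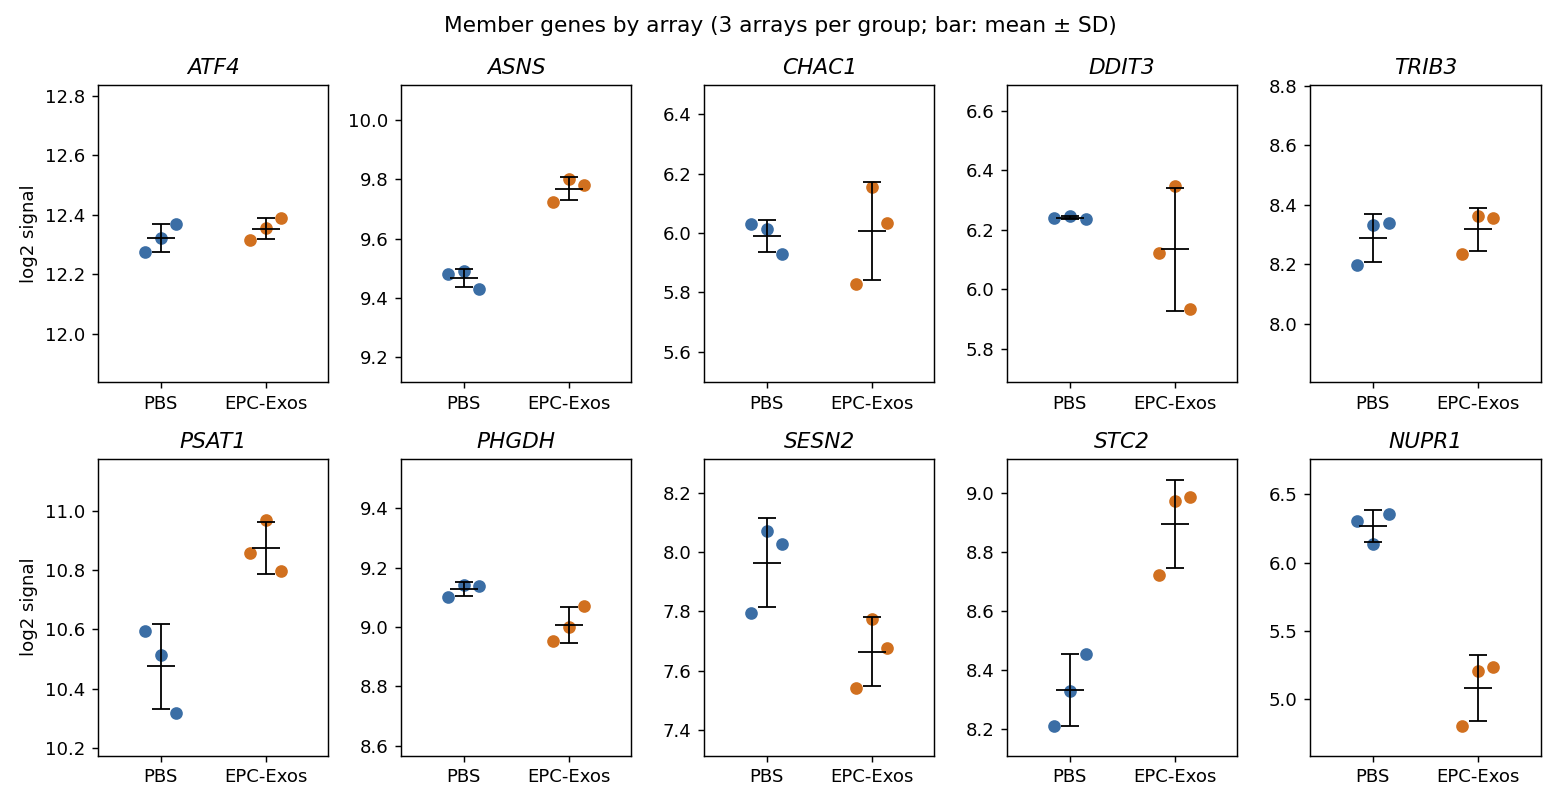
Log2 signal of each gene's brightest probe set on every array, blue for PBS and orange for EPC-Exos, with the mean and SD of 3 arrays; each panel has its own scale. STC2, PSAT1 and ASNS are higher on every EPC-Exos array, NUPR1, SESN2 and PHGDH are lower on every EPC-Exos array, and the groups overlap in ATF4, DDIT3, CHAC1 and TRIB3.

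ATF4 is the transcription factor at the centre of the response. Its log2 signals were 12.27, 12.32 and 12.37 on the PBS arrays and 12.32, 12.36 and 12.39 on the EPC-Exos arrays. The groups overlapped. The change was 0.032 ± 0.037 (SE, n = 3 per group; limma adjusted p = 0.507), with a 95% interval of -0.046 to 0.11 log2. Of all tested genes, 89.7% had a larger change in size. ATF4 was read by a single probe set of a kind (_x_at) that can also bind related transcripts. The 3 tested genes whose signals followed ATF4 most closely over the 6 arrays were UQCC5 (Pearson r = 0.986), INPPL1 (0.981) and ZNF592 (0.981). In these too the groups overlapped, with log2 changes of 0.044, 0.11 and 0.089. Like ATF4, each rose in order from replicate 1 to replicate 3 in both groups. The likeness thus describes a spread between arrays that follows the replicate number.

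DDIT3, CHAC1 and TRIB3 are the members most tied to prolonged or severe stress. DDIT3 encodes CHOP, a transcription factor known to promote cell death. Its signals were 6.24, 6.25 and 6.24 with PBS and 6.12, 6.35 and 5.94 with EPC-Exos. The treated arrays lay on either side of the PBS arrays and spread far more (SD 0.21 against 0.0045). The change was -0.11 ± 0.11 (limma adjusted p = 0.458; 95% interval -0.34 to 0.13), and in a fit of all probe sets the other DDIT3 probe set gave -0.25 ± 0.12 without a call. CHAC1 encodes an enzyme that degrades glutathione. It had signals of 6.03, 6.01 and 5.93 with PBS and 5.83, 6.15 and 6.03 with EPC-Exos, a change of 0.015 ± 0.11 (95% interval -0.21 to 0.24) whose sign turned under some alternatives. TRIB3, a pseudokinase that restrains AKT and ATF4 itself, had 8.20, 8.33 and 8.34 with PBS and 8.23, 8.36 and 8.36 with EPC-Exos. Its change was 0.029 ± 0.073 (limma adjusted p = 0.775; 95% interval -0.13 to 0.18), and its sign turned without PBS replicate 1 (-0.018). For CHAC1, TRIB3 and DDIT3 these intervals leave out a 1.5-fold change of the measured signal in either direction. The mean signals of CHAC1 (5.99 and 6.01) and DDIT3 (6.24 and 6.14) lay not far above the highest background control at 4.97. Signal so near background can understate a change, so for these genes the intervals do not bound the change in RNA.

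ASNS, PSAT1 and PHGDH are the amino acid enzymes of the list. ASNS makes asparagine from aspartate and is a textbook ATF4 target. Its signals were 9.48, 9.49 and 9.43 with PBS and 9.73, 9.80 and 9.78 with EPC-Exos. Every EPC-Exos array lay above every PBS array. The rise was 0.30 ± 0.056 (1.23-fold; limma adjusted p = 0.00028), and all 4 ASNS probe sets rose, by 0.23 to 0.30.

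PSAT1 and PHGDH act one after the other in serine synthesis. PHGDH, the first enzyme, had signals of 9.10, 9.14 and 9.14 with PBS and 8.95, 8.998 and 9.07 with EPC-Exos, so its treated arrays were all lower. Its change of -0.12 ± 0.062 was not called (limma adjusted p = 0.124; 95% interval -0.25 to 0.012). PSAT1, the transaminase that follows, had 10.59, 10.51 and 10.32 with PBS and 10.86, 10.97 and 10.80 with EPC-Exos. It rose by 0.40 ± 0.066 (1.32-fold; limma adjusted p = 8.9e-05), and each of its 8 probe sets rose, by 0.26 to 0.48. The phosphatase of the last step, PSPH, changed by -0.091 ± 0.063 and was not called. The rise along this short pathway was thus seen at 1 of its 3 enzymes.

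STC2, SESN2 and NUPR1 encode products that act outside amino acid synthesis. STC2, a secreted glycoprotein that inhibits the protease PAPP-A, had signals of 8.21, 8.33 and 8.45 with PBS and 8.72, 8.97 and 8.99 with EPC-Exos. The groups did not overlap. Its rise of 0.56 ± 0.084 (1.48-fold; limma adjusted p = 3.22e-05) was seen with all 3 probe sets, at 0.42 to 0.56.

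SESN2, a leucine sensor that restrains mTORC1 and is also a p53 target, had 7.79, 8.07 and 8.03 with PBS and 7.54, 7.77 and 7.68 with EPC-Exos. The highest treated array lay just under the lowest PBS array. The fall of 0.30 on the log2 scale (SE 0.089; limma adjusted p = 0.0108) was found with both probe sets. The fall was called in 17 of 18 alternatives. Without EPC-Exos replicate 1 the change was -0.24 and no longer called (limma adjusted p = 0.066). Without PBS replicate 2 the call was narrow (limma adjusted p = 0.0468). Over the alternatives the limma adjusted p ran from 0.00142 to 0.066.

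NUPR1, a small stress-induced chromatin protein, changed most. Its signals were 6.30, 6.13 and 6.35 with PBS and 4.81, 5.21 and 5.24 with EPC-Exos. The treated arrays lay close to the background controls, and the first of them was below the highest of these at 4.97. The change was -1.18 ± 0.13 (2.26-fold lower; limma adjusted p = 8.49e-07). The gene passed the signal filter of 5.45, set on the mean of all 6 arrays, through its PBS signals, as its mean was 6.26 with PBS and 5.08 with EPC-Exos. In the fit of all probe sets with no filter it was also called lower (limma adjusted p = 1.07e-06). Adding 64 to the linear signals, which damps differences near background, brought it to -0.52, still called. The gene has 1 probe set.

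**Figure D2:**
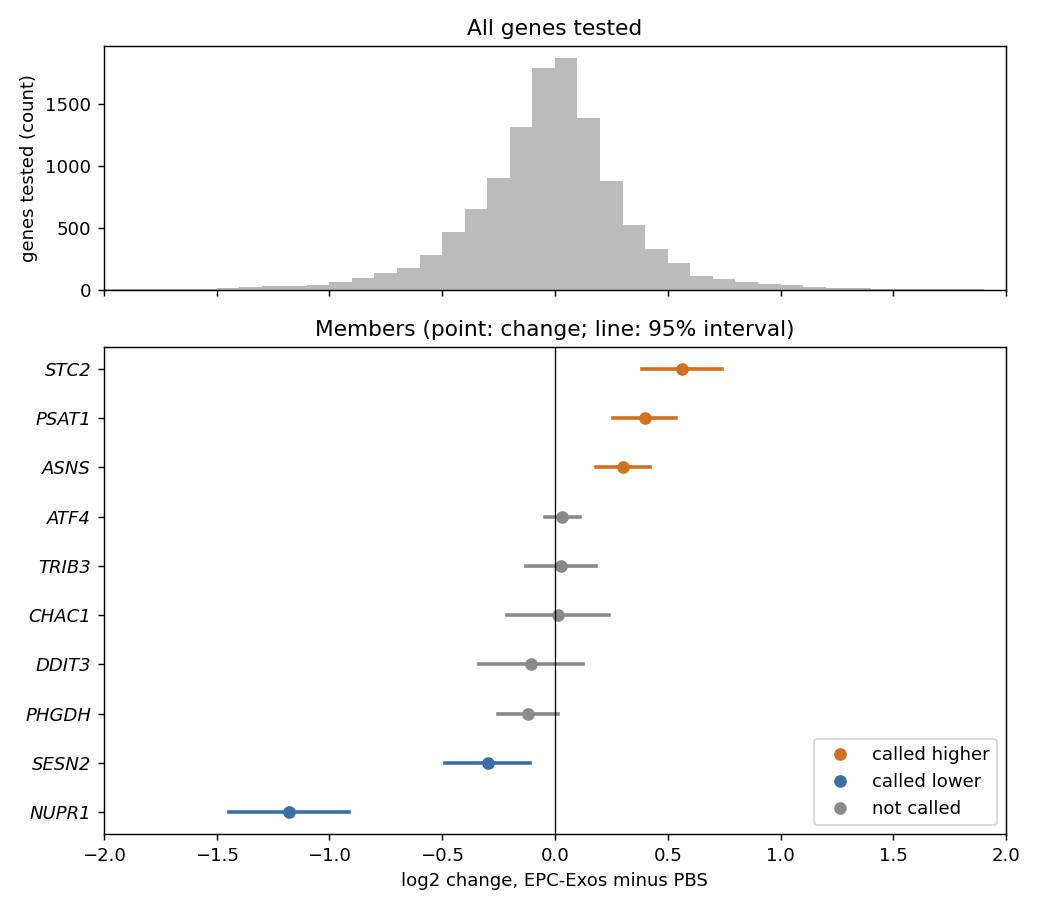
Upper panel: number of tested genes by log2 change, EPC-Exos minus PBS, drawn from -2 to 2. Lower panel: change of each of the 10 genes with its 95% interval, orange called higher, blue called lower and grey not called; NUPR1 at -1.18 and STC2 at 0.56 lie outside the range from -0.64 to 0.53 between the 5th and 95th percentiles of the upper panel, and 5 members lie in grey.

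In a limma fit over 49293 probe sets without a signal filter, 15 of the 26 member probe sets were called higher and 3 lower, with 13.6% and 14.8% of all probe sets called. These counts are weighted toward PSAT1 and ASNS, which hold 12 of the 26. In every member with several probe sets, these changed in the same direction, but those of CHAC1, TRIB3 and DDIT3 were not called. The changes of CHAC1 (0.015 ± 0.11 and 0.156 ± 0.143) and TRIB3 (0.029 ± 0.075 and 0.018 ± 0.105) were smaller than or near their SE. Their shared direction thus says little. Probe sets of the kinds that can bind related transcripts (_x_at and _s_at) made up 11 of the 26. Leaving them out removed ATF4 and DDIT3 altogether.

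**Figure D3:**
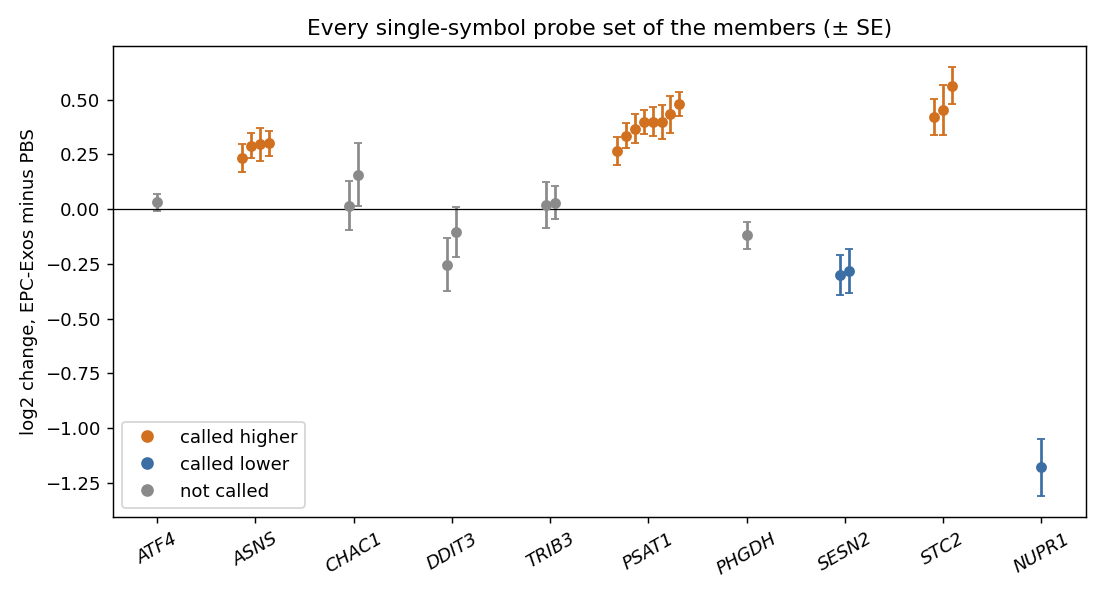
Log2 change with its SE for each of the 26 probe sets, grouped by gene, in the fit without a signal filter. The 8 PSAT1 probe sets span 0.26 to 0.48 and the 4 ASNS probe sets 0.23 to 0.30, all in orange for called higher, and both SESN2 probe sets are in blue for called lower.

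ATF4 binds DNA with C/EBP proteins at a composite site, and promoter windows from RefSeq (GRCh38.p14, 250 bases before to 50 after each start) were searched for its core, TGATGNAA, on both strands. Of the members 9 had windows, 14 in all, and ASNS and CHAC1 held a match. Over all genes 4.46% held one in any window, and 3.62% of single windows did. The members were listed as ATF4 and genes it is known to control, so their share is no independent evidence. The palindrome TGACGTCA, the cyclic AMP response element, was in 0 members and in 2.25% of genes. The ASNS stretch lies on the minus strand at chr7:97872443-97872502 and its match at positions -68 to -61, counted from the start. The CHAC1 stretch lies on the plus strand at chr15:40953236-40953295, with the match reading on the opposite strand at positions -209 to -202. They are shown because one of these genes rose and the other was not called although each holds the core. Capitals mark the match:
ASNS: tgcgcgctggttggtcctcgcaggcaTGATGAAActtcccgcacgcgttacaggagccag
CHAC1: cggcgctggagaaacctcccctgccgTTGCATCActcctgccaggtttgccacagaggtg
The match is a description of these letters and does not show binding.

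Around the members, the enzymes that charge tRNAs rose most evenly. Of 13 tested genes, 12 of them aminoacyl-tRNA synthetases and the last the tRNA export factor XPOT, 9 rose and 0 fell. Their median log2 change was 0.32, and by unadjusted limma p under 0.05 the counts were also 9 and 0. Of all tested genes, 21.7% were called higher and 27.3% lower. The largest rises were in XPOT (0.58 ± 0.052), MARS1 for methionine (0.58 ± 0.061), YARS1 for tyrosine (0.54 ± 0.061) and LARS1 for leucine (0.49 ± 0.048). GARS1 for glycine (0.39 ± 0.041) and IARS1 for isoleucine (0.27 ± 0.040) rose as well. AARS1, CARS1, SARS1 and WARS1 lay between 0.078 and 0.14 and were not called. Over the alternatives, 8 to 10 were called higher and 0 lower.

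Windows were held for 11 of these 13 genes, 16 in all, and 7 genes held the TGATGNAA core, beside the 4.46% of all genes given above. The 13 genes were listed as part of the known ATF4 program. A high share with the ATF4 core was thus built into the choice and is no independent evidence. In 3 of them the match lay wholly before the start, and these stretches are shown for comparison with ASNS. That of AARS1, which was not called, lies on the minus strand at chr16:70289660-70289719. That of GARS1, which rose, lies on the plus strand at chr7:30594819-30594877, and that of IARS1, which rose, on the minus strand at chr9:92293698-92293736. Capitals mark the core, which reads on the opposite strand in each:
AARS1: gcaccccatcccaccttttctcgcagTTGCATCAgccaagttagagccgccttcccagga
GARS1: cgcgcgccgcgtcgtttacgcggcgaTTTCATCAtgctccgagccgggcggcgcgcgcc
IARS1: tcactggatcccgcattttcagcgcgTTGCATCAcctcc
The core was thus present in genes that rose and in genes that were not called.

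Amino acid transporters rose in 5 of 12 tested genes and fell in 1, with a median of 0.15. The shares of all tested genes were 21.7% higher and 27.3% lower. SLC1A5, which imports glutamine, rose by 0.45 ± 0.056, SLC38A1 by 0.44 ± 0.058 and SLC3A2, the heavy chain shared by several exchangers, by 0.44 ± 0.059. Its partners SLC7A5 for leucine (0.29 ± 0.066) and SLC7A11 for cystine (0.33 ± 0.070) rose too. SLC38A2, a classical target of amino acid shortage, fell (-0.39 ± 0.048).

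**Figure D4:**
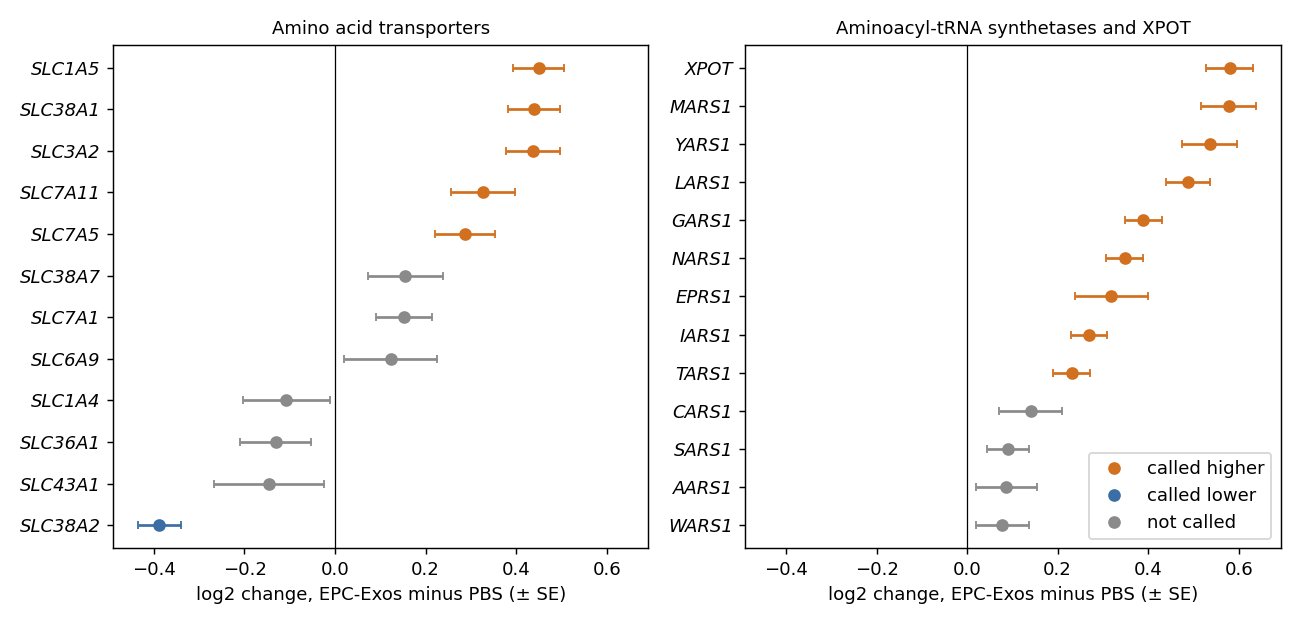
Log2 change, EPC-Exos minus PBS, with its SE for the 12 tested amino acid transporters (left) and the 13 tested tRNA charging and export genes (right), orange called higher, blue called lower, grey not called. On the right all 13 points lie above 0, from WARS1 to XPOT at 0.58; on the left SLC38A2 at -0.39 is the one gene called lower.

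Among 11 tested serine, glycine and one-carbon enzymes, 5 rose and 2 fell, with a median of 0.0042. Over all tested genes 21.7% were called higher and 27.3% lower. The mitochondrial folate enzymes MTHFD1L (0.46 ± 0.049), SHMT2 (0.35 ± 0.054) and MTHFD2 (0.29 ± 0.052) and GCSH of the glycine cleavage system (0.49 ± 0.12) rose. MTHFD1 rose less (0.13 ± 0.053; limma adjusted p = 0.0448). SHMT1 (-0.43 ± 0.063) and the thymidylate synthase gene TYMS (-0.33 ± 0.034) fell. Of 11 other amino acid enzymes, 5 rose and 3 fell. ASS1, which makes the precursor of arginine, fell most, with log2 signals of 9.25 ± 0.12 under PBS and 7.16 ± 0.12 under EPC-Exos (SD, n = 3), a change of -2.10 ± 0.083. The proline catabolic ALDH4A1 fell too (-0.84 ± 0.096), and the branched-chain transaminase BCAT1 (1.12 ± 0.073) and the mitochondrial transaminase GOT2 (0.33 ± 0.042) rose. The proline synthesis genes PYCR1, PYCR3 and ALDH18A1 rose by 0.22 to 0.27.

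The machinery upstream of ATF4 held rises and falls. Of 21 tested genes of eIF2 phosphorylation and its reversal, 8 rose, 7 fell and 6 were not called, with a median of 0.11. Of all tested genes, 21.7% were called higher and 27.3% lower, so rises beside falls are not particular to this list. EIF2AK2, the RNA-activated eIF2 kinase PKR and itself an interferon-induced gene, rose by 0.88 ± 0.059, while the kinase genes EIF2AK3 (PERK; -0.32 ± 0.072) and EIF2AK1 (-0.14 ± 0.046) fell. EIF2AK4, encoding the amino acid sensor GCN2, changed by 0.13 ± 0.071 and was not called. EIF2S1, the phosphorylated subunit of eIF2, rose by 0.68 ± 0.047. EIF2B3 (0.41 ± 0.052), EIF2B4 (0.40 ± 0.056) and EIF2B5 (0.21 ± 0.070), of its exchange factor, rose as well. EIF2B1 (0.027 ± 0.050) and EIF2B2 (0.13 ± 0.053) of that factor were not called. PPP1R15A and PPP1R15B, which bring the phosphatase to eIF2, rose by 0.34 ± 0.081 and 0.26 ± 0.070. Of the phosphatase genes themselves, PPP1CA (-0.20 ± 0.042) and PPP1CB (-0.24 ± 0.062) fell and PPP1CC (0.11 ± 0.031) rose. OMA1 (-0.54 ± 0.086) and DELE1 (-0.23 ± 0.063), which relay mitochondrial stress, fell. Phosphorylation itself was not measured.

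Of 20 tested partner and related transcription factors, 6 rose and 6 fell, beside 21.7% and 27.3% of all tested genes. The AP-1 genes FOSL1 (1.16 ± 0.066) and JUN (0.79 ± 0.055) and CEBPB (0.47 ± 0.067), a dimer partner of ATF4, rose. Among the other listed FOS and JUN genes, FOSL2 rose (0.19 ± 0.073), and FOS, JUNB and JUND were not called. CEBPD fell (-0.57 ± 0.096), and CEBPG was not called (0.11 ± 0.063). ATF3, a stress-induced ATF4 target, fell (-0.83 ± 0.094), as did CREBRF (-1.08 ± 0.11). Over the alternatives the counts ran from 4 to 8 higher and 4 to 7 lower.

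Of 28 tested genes listed as other ATF4 and CHOP targets, 9 rose and 10 fell, with a median of 0.019. These counts stand beside 21.7% of all tested genes called higher and 27.3% lower. Whether ATF4 or CHOP controls each listed gene in these cells was not tested. The largest changes were falls, in CYP1B1 (-2.25 ± 0.12), KLHL24 (-1.24 ± 0.095), the pro-apoptotic BBC3 (-1.20 ± 0.096) and the stress cytokine GDF15 (-1.01 ± 0.078). DDIT4, an mTORC1 inhibitor, fell as well (-0.39 ± 0.052). The rises included VEGFA (0.82 ± 0.057), the oxidase ERO1A (0.71 ± 0.062), the translation repressor EIF4EBP1 (0.69 ± 0.050) and VLDLR (0.67 ± 0.079). Several of these genes are also known targets of p53, hypoxia or lipid signalling.

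In the ATF6 and XBP1 arms of the unfolded protein response, 10 of 22 tested genes rose and 5 fell, at a median of 0.076. Over all tested genes the shares were 21.7% and 27.3%. SDF2L1 (0.49 ± 0.063) and the chaperones CALR (0.39 ± 0.072) and HSPA5 (0.29 ± 0.032) rose. CREB3L2 (-0.62 ± 0.052), SYVN1 (-0.48 ± 0.066) and DNAJB9 (-0.46 ± 0.065) fell, the last 2 of them factors of protein disposal and folding. Without EPC-Exos replicate 2 the count of rises was 6.

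**Figure D5:**
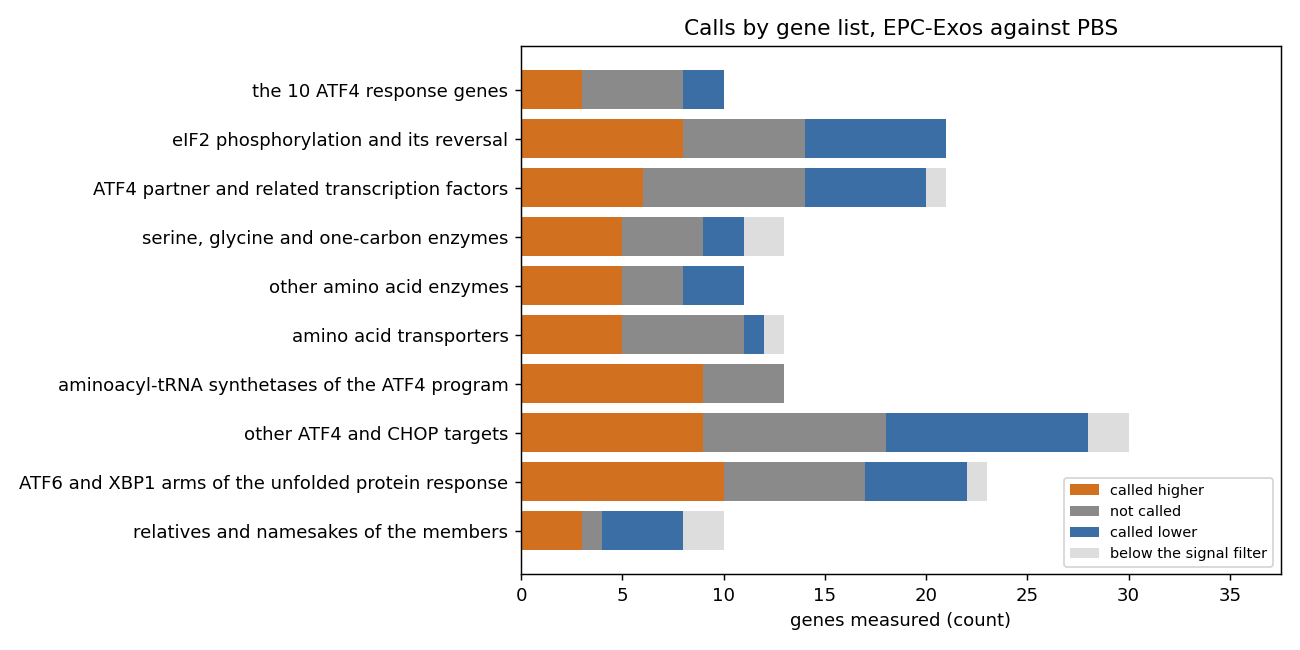
Number of measured genes in each list called higher (orange), not called (grey), called lower (blue) or below the signal filter (light grey), EPC-Exos against PBS. The bar for the tRNA charging genes has 9 genes called higher and no blue segment, while the bars of the members and of eIF2 phosphorylation hold both colours. Over all tested genes 21.7% were called higher and 27.3% lower.

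Close relatives of the members were read as well. STC1, the other stanniocalcin, went from 8.90 ± 0.078 to 10.45 ± 0.13 (SD, n = 3), a rise of 1.55 ± 0.069 beside 0.56 for STC2. SESN1 fell by 1.03 on the log2 scale (SE 0.081), and SESN3 lay below background in both groups. Both other tribbles genes fell, TRIB2 by 0.79 (SE 0.081) and TRIB1 by 0.26 (SE 0.071), beside 0.029 for TRIB3. CHAC2 rose (0.47 ± 0.083), beside 0.015 for CHAC1. ATF5 was not called (-0.12 ± 0.077), and NUPR2 lay below background. DDIT4L, which like DDIT4 shares a name but no protein family with DDIT3, rose (0.53 ± 0.11). Differences between a member and its relative were not tested. In all, 3 of 8 tested relatives and namesakes rose and 4 fell, beside 21.7% and 27.3% of all tested genes.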

How the data were processed

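RNA of 6 HMEC-1 samples, 3 given PBS and 3 EPC-Exos, was hybridised to Affymetrix 3' arrays. The deposited values are log2 signals per probe set as the authors made them; the log2 scale was inferred from their range, 2.47 to 14.52. The submitters' processing notes list MAS5 with no further detail, and how background was corrected and arrays were scaled is not given in the sources used here. No further normalization was applied.

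The platform annotation gave 1 symbol for 44988 probe sets, several for 1832 and none for 2473, and 102 were controls. The gene ID of 44961 was found in RefSeq (GRCh38.p14). A gene was its probe set with the highest mean, tested where that mean reached the 40th percentile, a log2 signal of 5.45. Background was read from 17 Tag control probe sets, which are not human sequences.

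The comparison used limma 3.58.1 (R 4.3.3; variance trend, group as the only term), two-sided, adjusted over all 11715 genes by Benjamini-Hochberg. Changes are EPC-Exos minus PBS, with moderated SE and n = 3 arrays per group; the number of arrays limits precision. In data simulated for this comparison on 11715 genes, the fit called 61.2% of 67 genes set to differ 1.2-fold. It called 100% of the 67 set to 1.5-fold and of the 66 set to 2-fold, with 9 false calls. Only these genes were set to differ, with independent noise, whereas 5748 genes were called in the data. The simulated rates therefore do not carry over to the data.

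The members and the 9 gene lists were chosen with earlier results of these data known. The rule for names was every member and relative, the 4 called genes of largest change in each list, and the 3 genes most like ATF4; other genes were named after their values were seen. Across the lists, 8 genes stand in more than 1. Some listed genes are not reported here.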

Additional observations from a re-analysis of the deposited data

How the results depend on the processing

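Alternatives changed the scaling (quantile, cyclic loess, median centring), the low end of the signal (offsets of 16 or 64; the filter dropped, or raised to the 60th percentile), the probe sets of a gene (their mean; no _x_at or _s_at), the variance model (without the trend; with array weights) and the samples (a replicate block; each array left out). ASNS, PSAT1, STC2 and NUPR1 were called in the same direction under every alternative that tested them, and the count of members called higher was 3 in each. The count called lower was 1 with the filter at the 60th percentile, which NUPR1 did not reach, and between 1 and 2 when single arrays were left out; the lower count came without EPC-Exos replicate 1, where SESN2 was not called. Among members not called, the change of CHAC1 turned with array weights (-0.0056) and ran from -0.059 to 0.10 when arrays were left out, and that of TRIB3 ran from -0.018 to 0.070. No scaling moved the median change of all genes by over 0.1. The labels name no pairing, so the main fit had no replicate block. Same-numbered arrays correlated in their deviations from group means at 0.20, 0.18 and 0.077, all positive. Whether they were handled together was not tested. With the replicate block, 3 members were called higher and 2 lower. Of all genes, 2724 were then called higher and 3394 lower, beside 2545 and 3203 in the main fit. Signal near background limits the size given for NUPR1 and the intervals of CHAC1 and DDIT3, and 5 endothelial markers could not be tested.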
